A study of Mus musculus with 24 samples.

Results

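The earliest transcriptome of the Ctcflos knockdown series is described here, 24 h after transfection of brite adipocytes. Its members are 12 of the 24 libraries of the series, namely the 6 knockdown libraries (KD) and the 6 nontargeting control libraries (NC) that the labels place at 24 h. All 12 came from primary adipocytes of 129SvEv mice, obtained as stromal-vascular cells of the inguinal white fat depot, induced and then differentiated with rosiglitazone, a PPARgamma agonist, together with insulin and triiodothyronine. The induction medium of both groups also held dexamethasone, indomethacin and IBMX, so that the NC libraries carry every hormone treatment of the KD libraries. The KD cells received 50 nM of locked nucleic acid gapmer against Ctcflos (1300015D01Rik), and the NC cells 50 nM of a nontargeting gapmer. By the study's account the gapmer of these libraries was ASO 1, directed at Ctcflos transcript 1, and with a single sequence an effect of Ctcflos loss and an effect of the oligonucleotide on other RNAs cannot be told apart. Where the labels number the libraries 1 to 6 they do not name the cultures, and p-values therefore measure the spread between these libraries.

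Ctcflos is a long noncoding RNA, a transcript that works without being translated. A gapmer is a short antisense oligonucleotide with a DNA centre and locked ends, which pairs with its target RNA and lets RNase H cut it, in the nucleus as well as in the cytoplasm. Brite adipocytes are mitochondria-rich, heat-producing fat cells that arise within white fat depots. At this stage of culture they still secrete extracellular matrix, store lipid and translate large amounts of secreted protein.

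Each library was a 3′-end library (BRB-seq, in which reverse transcription from the poly(A) tail adds a barcode), and the deposited values are RPKM, reads scaled by transcript length and by the number of mapped reads. Recovered read totals ran from 1391830 in KD replicate 6 to 5423831 in NC replicate 2. At a transcript length of 2 kb, 3 reads were worth 0.28 to 1.08 RPKM, so a value under this level in a library rests on very few reads. The deviations from the group means were clustered over all 24 libraries of the series. This put the 12 libraries into 2 sets that crossed the groups and that no label names. The smaller set held KD replicates 3 and 4 with NC replicates 5 and 6, and the larger set the remaining 8. Over the 24 libraries these deviations correlated at 0.157 between groups within a set and at -0.187 between sets. The sets were formed from the same deviations, so the order of these 2 values was fixed by the clustering. KD replicate 6 lay farthest from the others of its group. The labels give no reason for these sets, and the median of a gene list is given for each set, over the members tested in it, where the sets gave opposite signs (11 pathway lists) or differed by over 0.3 (9 more). In bulk RNA, fewer cells of a type and less RNA per cell cannot be told apart.

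Adipocyte markers were abundant in all 12 libraries. The summed level of 12 adipocyte markers was 40680 to 56294 RPKM in KD and 55279 to 57623 in NC, and that of 12 preadipocyte and stromal markers 970.4 to 1549 in KD and 1049 to 1745 in NC. In the test over all genes described below, 4 of the 12 adipocyte markers fell and none rose (median log2 fold change -0.37, -0.43 for the larger and -0.05 for the smaller set), namely Cebpa (-0.58 ± 0.15) and Pparg (-0.45 ± 0.15), the transcription factors of fat cell identity, Adipoq (-0.56 ± 0.16) and Lipe (-0.42 ± 0.13), hormone-sensitive lipase, at adjusted p = 0.0112 to 0.0442. They were named after their values were seen. Of all genes tested 12.9% fell, and without KD replicate 1 the count of adipocyte markers that fell was 2. Macrophage markers summed to 3.721 to 41.47 in KD and 11.18 to 63.99 in NC, mural markers to 142.9 to 643.2 and 363.9 to 1093, and Schwann cell markers to 3.425 to 5.876 and 5.538 to 9.154. Endothelial markers stood at 1.621 to 4.215 in KD and 2.48 to 4.282 in NC, with Vwf at 0 in all 12 libraries, and 8 of 9 lymphocyte markers were at 0. Epithelial and mesothelial markers summed to 24.54 to 75.28 in KD and 18.76 to 25.79 in NC, with Upk3b and Cdh1 at 0. The part of these cell types in the gene changes was not tested.

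The targeted RNA was checked first. The table holds 6 entries for Ctcflos, named here by their length in bases, and the longest 2 and the middle 2 share reads. Over all 12 libraries their levels were low, and the best covered pair, of 3473 and 3476 bases, held 12 reads in KD and 60 in NC. For the 918-base entry the level was 0.218 ± 0.322 RPKM in KD and 1.63 ± 0.893 in NC (SD, n = 6 each), 13.4% of NC, from 6 and 36 reads (exact permutation test over libraries, two-sided, p = 0.00649, adjusted p = 0.039 over 6 entries). It was the only entry of the 6 to pass, and 5 of 6 KD libraries lay below the lowest NC library. The long pair stood at 25.5% of NC (exact permutation test, p = 0.0455, adjusted p = 0.0909) and the 1156- and 1237-base pair at 59.4%, on 8 against 12 reads (exact permutation test, adjusted p = 0.444). This last pair is transcript 1, the target of ASO 1, and a fall of it was not detectable at this depth. The 918- and 3473-base entries are transcripts 3 and 4, for which the study designed other gapmers. Only NC replicate 1 had reads of the 469-base entry, 3 in number. The number of entries that passed moved between 0 and 3 as single libraries were left out, with 0 without KD replicate 1, 2, 3, 5 or 6 or NC replicate 1 or 4, and 3 without NC replicate 2 or 6.

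Of 10275 genes tested, 1235 rose (12.02%) and 1328 fell (12.9%) in KD at 24 h (limma on log2(RPKM + 0.1), Benjamini-Hochberg adjusted p under 0.05 over all genes tested). Fold changes below are on this log2 scale as KD against NC with their SE, and levels are RPKM after a common scaling of the 12 libraries, called scaled RPKM. The median was 0.82 among the rises and -0.86 among the falls. More than 2-fold rises numbered 392 and more than 2-fold falls 521, whereas more than 4-fold changes were limited to 30 rises and 42 falls. The KD and NC libraries did not overlap in 520 of the called rises (5.06% of genes tested) and 711 of the called falls (6.92%). The median of all genes was -0.01. The smaller set alone, with 2 libraries a group, called 199 rises (1.87%) and 202 falls (1.90%), and the larger set alone 1449 (14.3%) and 1557 (15.4%).

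The 15 greatest non-overlapping rises ran from 2.30 to 4.58 on the log2 scale. Epha2, a receptor tyrosine kinase for ephrin-A ligands, ranged from 0.822 to 3.13 scaled RPKM in the KD libraries (median 2.09) and 0 to 0.142 in the NC libraries (median 0.0310). NC cells were close to the detection limit for this gene, with 6 reads in all against 174 in KD, and all 6 KD libraries lay above every NC library (log2 fold change 3.64 ± 0.37, SE, adjusted p = 4.25e-05). Cd24a, a small surface glycoprotein, ranged from 5.20 to 7.16 scaled RPKM in the KD libraries (median 5.80) and 0.185 to 1.42 in the NC libraries (median 0.585). The KD libraries were tightly grouped and none came near the NC libraries (log2 fold change 3.24 ± 0.32, SE, adjusted p = 4.25e-05). Ptgs2, the inducible cyclooxygenase of prostaglandin synthesis, ranged from 0.895 to 2.38 scaled RPKM in the KD libraries (median 1.63) and 0.0982 to 0.362 in the NC libraries (median 0.243). Its levels were low in both groups, on 163 and 25 reads, and did not overlap (log2 fold change 2.30 ± 0.31, SE, adjusted p = 0.000294).

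Slc25a24, a mitochondrial ATP-Mg/phosphate carrier, ranged from 2.57 to 6.86 scaled RPKM in the KD libraries (median 5.51) and 0.649 to 1.10 in the NC libraries (median 0.864), with no overlap (log2 fold change 2.33 ± 0.26, SE, adjusted p = 7.13e-05). Ajuba, a LIM-domain protein that binds the LATS kinases of the Hippo pathway, ranged from 1.73 to 5.75 scaled RPKM in the KD libraries (median 4.57) and 0 to 1.34 in the NC libraries (median 0.485). NC replicate 1 was at 0 for Ajuba, and the KD libraries were all higher (log2 fold change 3.05 ± 0.57, SE, adjusted p = 0.00206). Among the 15 greatest non-overlapping rises were also Marcksl1 (2.69 ± 0.53), an actin-binding substrate of protein kinase C, Sdcbp2 (2.71 ± 0.53), a PDZ adaptor, Enpp3 (2.52 ± 0.39), an ectonucleotidase, and Cdk5r1 (2.34 ± 0.35), the p35 activator of CDK5. Dcaf12l1 (3.27 ± 0.49), Gm8113 (2.64 ± 0.36) and 4931413I07Rik (4.58 ± 0.70) completed them together with the serpins and Sprr1a described below. Of the 15, 5 (Epha2, Sprr1a, Ptgs2, Cdk5r1 and 4931413I07Rik) passed the filter on low values through KD libraries alone, so that they had to differ. The adjusted p of Marcksl1 and the 6 genes named after it lay between 0.00034 and 0.00285, and the NC libraries held few reads for most of them, from 11 to 93 in sum, so that their fold changes depend on the pseudocount.

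The 15 greatest falls ran from -2.26 to -3.39 on the log2 scale. Mcu, the pore of the mitochondrial calcium uniporter, ranged from 3.29 to 20.6 scaled RPKM in the KD libraries (median 10.6) and 51.6 to 65.7 in the NC libraries (median 53.1). It was the most abundant of the 15 greatest falls, and its NC libraries were nearly level while the KD libraries spread widely (log2 fold change -2.45 ± 0.32, SE, adjusted p = 0.000234). Park2 encodes Parkin, a ubiquitin ligase of mitophagy, and ranged from 0.145 to 2.36 scaled RPKM in the KD libraries (median 0.986) and 5.36 to 8.93 in the NC libraries (median 7.55). Every KD library lay below every NC library (log2 fold change -3.01 ± 0.46, SE, adjusted p = 0.000684). Dock1, an exchange factor for the GTPase Rac, ranged from 2.38 to 7.75 scaled RPKM in the KD libraries (median 2.64) and 14.9 to 20.8 in the NC libraries (median 17.2), again without overlap (log2 fold change -2.28 ± 0.27, SE, adjusted p = 0.000129). Atxn1, the chromatin-associated protein ataxin-1, ranged from 0.361 to 2.00 scaled RPKM in the KD libraries (median 1.03) and 5.22 to 7.20 in the NC libraries (median 6.62), and the KD libraries were all lower (log2 fold change -2.48 ± 0.31, SE, adjusted p = 0.000166).

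Further falls without overlap were the junction scaffold Magi1 (-2.94 ± 0.51), the polarity protein Pard3 (-2.36 ± 0.37) and the planar polarity gene Prickle1 (-2.45 ± 0.27). Zbtb20 (-3.10 ± 0.61), a zinc finger repressor, Tshz2 (-2.75 ± 0.32), a teashirt zinc finger protein, Cradd (-3.39 ± 0.68), an adaptor of caspase 2, Septin6 (-2.44 ± 0.43), a filament-forming GTPase, Tmeff2 (-2.27 ± 0.54), a transmembrane protein with follistatin domains, and Mmd2 (-2.26 ± 0.46) belonged to the same 15. The remaining 2 were 9330177L23Rik (-2.92 ± 0.69) and 5033415L01Rik (-2.78 ± 0.60). Adjusted p for these 11 genes was 6.79e-05 to 0.00791. Tshz2 rested on 8 reads in KD and 114 in NC, and several of the others had KD libraries at 0. Of the 15 greatest falls, 2 passed the filter on low values through NC libraries alone, so that they had to differ. Of the 30 genes of greatest change, 26 could be placed on the GRCm38.p6 annotation and none of these overlapped another gene tested.

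The genes that fell were longer than the genes that rose. Gene span, the distance from the start to the end of a gene in the annotation including its introns, had a median of 53.03 kb among the falls, 16.07 kb among the rises and 22.41 kb among all 10010 tested genes that could be placed (97.4%). The genes were divided into 5 groups of equal size by span. In the longest group, from 63.77 to 2390 kb, 29.9% of 2002 genes fell and 4.95% rose, that is 599 against 99. In the shortest group, up to 7.491 kb, 162 of 2003 fell and 280 rose, and in the groups between, in order of span, 152 fell and 336 rose, 171 fell and 295 rose, and 225 fell and 201 rose, of 2001 or 2002 each. The median log2 fold change of the longest group was -0.32, against values between -0.02 and 0.12 in the other 4. By library set it was -0.37 (larger) and -0.25 (smaller), and it was -0.34 without KD replicate 6, and -0.20 at 72 h. RPKM is divided by transcript length, not by gene span, and the same length applies to KD and NC. No test was run over genes, and whether span itself or another property of these genes goes with the falls was not tested.

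**Figure D1:**
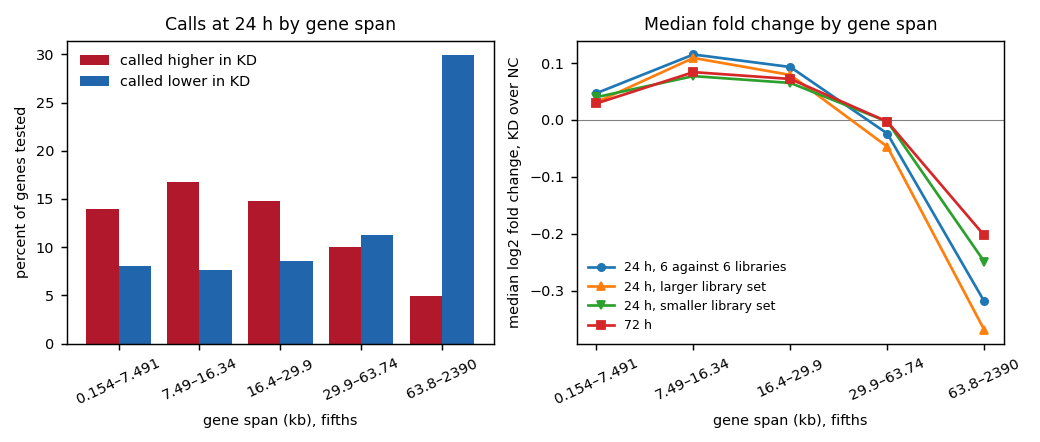
Calls and fold change in 5 groups of gene span (kb). Bars give the percent of tested genes called higher and lower at 24 h, and points the median log2 fold change at 24 h in all libraries and in each library set, and at 72 h. Falls reach 29.9% in the longest group and stay between 7.60% and 11.2% in the other 4.

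The long genes with the smallest adjusted p in each direction serve as examples, with positions on GRCm38.p6. Acaca (chr11:84129635-84401651), acetyl-CoA carboxylase and the committed step of fatty acid synthesis, ranged from 2.51 to 4.57 scaled RPKM in the KD libraries (median 3.33) and 11.2 to 17.3 in the NC libraries (median 12.8). The groups were far apart (log2 fold change -1.97 ± 0.17, SE, adjusted p = 2.08e-05), though Acaca overlaps Tada2a, and without a stated strand setting reads of overlapping genes cannot be separated. Sec24d (chr3:123264801-123365641), a cargo-binding subunit of the COPII coat, ranged from 2.71 to 4.57 scaled RPKM in the KD libraries (median 3.54) and 9.68 to 12.9 in the NC libraries (median 11.0), with every KD library lower (log2 fold change -1.64 ± 0.16, SE, adjusted p = 3.68e-05). Nfib (chr4:82290173-82506751), a nuclear factor I transcription factor, fell from 26.7 ± 1.58 scaled RPKM in NC to 9.63 ± 2.09 in KD (SD, n = 6 each), with a log2 fold change of -1.49 ± 0.14 (SE, adjusted p = 3.68e-05), and overlaps 2310067E19Rik. Cyp7b1 (chr3:18071944-18243890), an oxysterol hydroxylase, and Tmem45a (chr16:56805161-56886433) changed by -2.12 ± 0.21 and -1.82 ± 0.17 (adjusted p = 4.25e-05 and 3.52e-05).

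Long genes also rose, 99 in the longest group. Abcg2 (chr6:58584491-58692451), an efflux transporter of xenobiotics and urate, ranged from 21.1 to 33.0 scaled RPKM in the KD libraries (median 25.9) and 5.40 to 11.8 in the NC libraries (median 7.11). All KD libraries exceeded all NC libraries (log2 fold change 1.78 ± 0.18, SE, adjusted p = 4.25e-05). Maoa (chrX:16619698-16687812), monoamine oxidase A, ranged from 44.4 to 88.4 scaled RPKM in the KD libraries (median 65.2) and 21.3 to 27.0 in the NC libraries (median 23.7), likewise without overlap (log2 fold change 1.41 ± 0.14, SE, adjusted p = 4.25e-05). Frk (chr10:34483400-34611232), a tyrosine kinase of the SRC family group, rose by 1.38 ± 0.19 (adjusted p = 0.000324), and Filip1l (chr16:57353277-57572804) by 1.59 ± 0.21 (adjusted p = 0.000237). Filip1l overlaps Cmss1, whose own value was -2.65 ± 0.73 (adjusted p = 0.016).

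Gene groups were then read from 49 pathway lists, which were drawn up with earlier results of these data known, with the share of all genes (12.02% higher, 12.9% lower) as background. Counts for a list are members that passed the test over all genes, and a median is the median log2 fold change of its tested members. Of 1569 genes on the lists, markers included, 1301 were tested. Where leaving out 1 library moved a count of 4 or more by over 1.5 times, the value without that library follows the list, and smaller counts changed by at most 4.

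**Figure D2:**
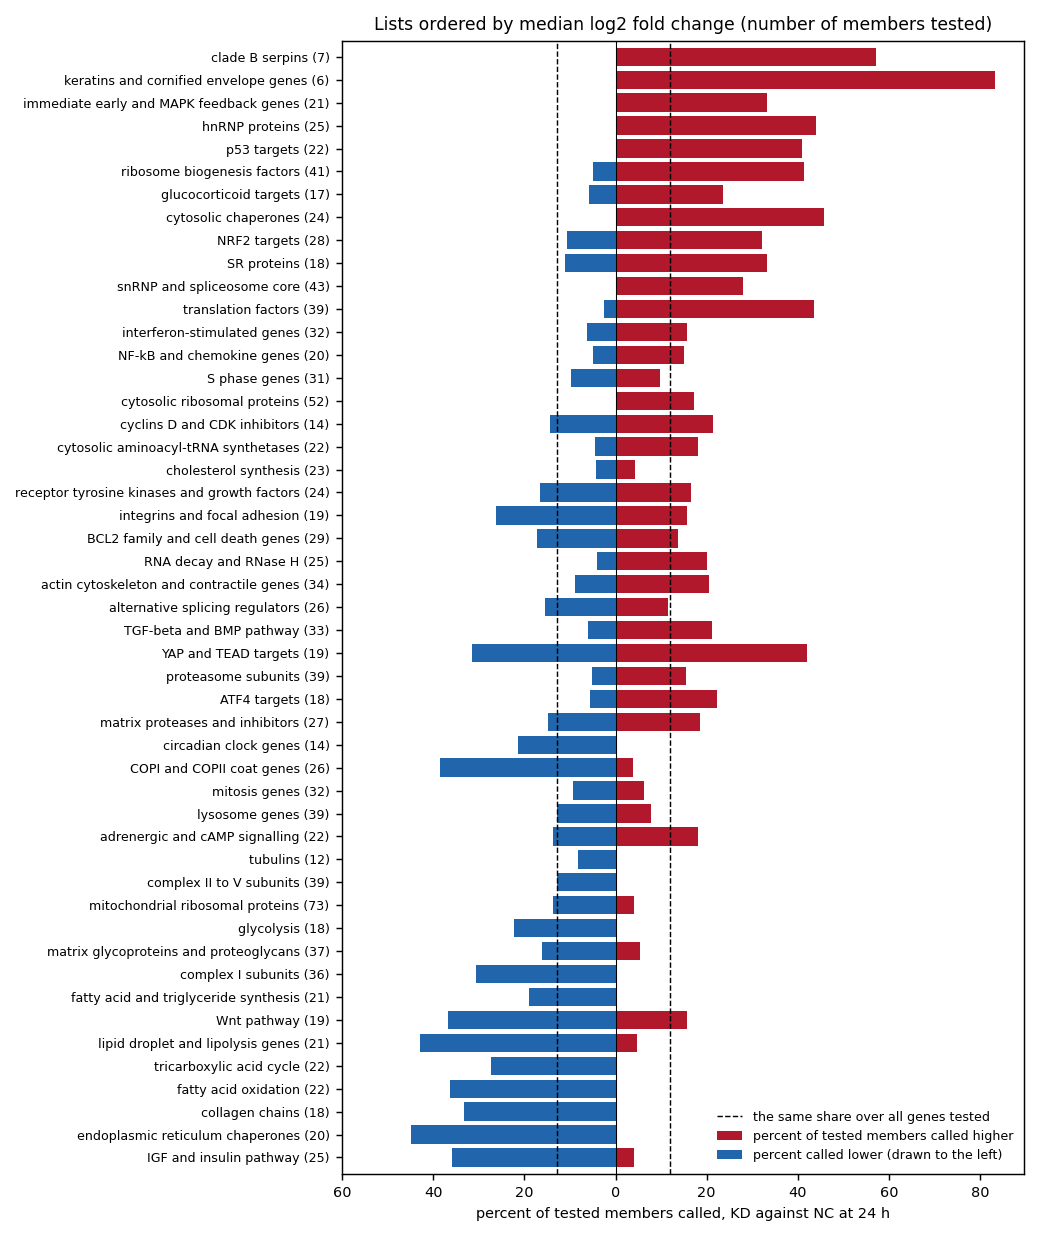
The 49 pathway lists in order of their median log2 fold change. Bars give the percent of tested members called higher (to the right) and lower (to the left), the number tested stands in brackets, and dashed lines mark the shares over all genes. Clade B serpins and the 6 tested keratin genes stand at the top, and the IGF and insulin pathway and endoplasmic reticulum chaperones at the bottom.

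Clade B serpins are intracellular inhibitors of serine and cysteine proteases, several of which guard cells against granzymes. Of 13 members 7 were tested, 4 rose and none fell, with a median of 1.29. Serpinb9, the granzyme B inhibitor, ranged from 25.6 to 57.3 scaled RPKM in the KD libraries (median 42.0) and 6.57 to 8.88 in the NC libraries (median 7.84). No library of either group came close to the other group (log2 fold change 2.33 ± 0.19, SE, adjusted p = 9.77e-06). Serpinb6b ranged from 21.0 to 32.2 scaled RPKM in the KD libraries (median 23.9) and 0.918 to 4.54 in the NC libraries (median 3.09), and its KD libraries were all higher (log2 fold change 3.14 ± 0.30, SE, adjusted p = 3.68e-05). Serpinb2, plasminogen activator inhibitor 2, ranged from 3.59 to 6.98 scaled RPKM in the KD libraries (median 6.00) and 0.413 to 3.04 in the NC libraries (median 1.43), with KD replicate 4 far below the other KD libraries (log2 fold change 1.99 ± 0.33, SE, adjusted p = 0.00116). Serpinb9b rose by 1.29 ± 0.24 (adjusted p = 0.00203). These genes lie in families of near copies, and the counting of reads between copies is not stated, so the assignment to a copy is uncertain.

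Keratin and cornified envelope genes build the outer layer of stratified epithelia and are little used in fat cells. Of 27 genes only 6 reached the level for testing, and 5 of them were called higher (median 1.16, 1.75 for the larger set of libraries and 0.73 for the smaller). Since a gene could reach that level through the group in which it is high, this count and median do not speak for the 27 genes. Sprr1a, a cross-linked envelope precursor, ranged from 3.55 to 19.2 scaled RPKM in the KD libraries (median 13.6) and 0.763 to 1.70 in the NC libraries (median 1.21), without overlap (log2 fold change 3.04 ± 0.39, SE, adjusted p = 0.000215). It had 24 reads in NC against 222 in KD, and no NC library reached the level for testing. Ly6d, a surface protein of squamous cells, rose by 1.07 ± 0.20 and Krt19, a simple-epithelial keratin, by 1.05 ± 0.24 (adjusted p = 0.00229 and 0.00711). Krt19 is also the only epithelial marker that could be tested, and its KD libraries overlapped those of NC. The epithelial marker sum, given above, ranged higher in KD with some overlap between the groups, with Upk3b and Cdh1 at 0 in every library.

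Chaperone genes were read as a list of the endoplasmic reticulum and a list that is cytosolic save for Hspd1 and Hspe1, of the mitochondrial matrix. Of 20 tested chaperones and stress regulators of the endoplasmic reticulum, which fold secreted proteins, 9 fell and none rose (median -0.36), and 19 lay below 0. Of 24 tested members of the second list 11 rose and none fell (median 0.37), and without Hspd1 and Hspe1, neither of them called, the same 11 rose of 22 (median 0.38). Hspa5 (BiP), the Hsp70 of the endoplasmic reticulum, ranged from 95.9 to 116 scaled RPKM in the KD libraries (median 102) and 128 to 136 in the NC libraries (median 134). The fall was small against the level but every KD library was lower, even KD replicate 6, which stood well above the other KD libraries (log2 fold change -0.36 ± 0.08, SE, adjusted p = 0.00624). Hsp90b1 (GRP94) ranged from 176 to 264 scaled RPKM in the KD libraries (median 228) and 312 to 338 in the NC libraries (median 315), without overlap (log2 fold change -0.52 ± 0.10, SE, adjusted p = 0.0029). Pdia6, a disulfide isomerase, ranged from 119.9 to 162 scaled RPKM in the KD libraries (median 146) and 190.5 to 219 in the NC libraries (median 204), with a similar picture (log2 fold change -0.54 ± 0.10, SE, adjusted p = 0.00167). Atf6, a membrane-bound sensor of unfolded protein, gave -1.10 ± 0.28 (adjusted p = 0.0118).

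In the cytosol, Hsp90aa1, the inducible Hsp90, ranged from 25.8 to 58.4 scaled RPKM in the KD libraries (median 37.7) and 16.6 to 21.4 in the NC libraries (median 20.5). All KD libraries were higher (log2 fold change 0.92 ± 0.17, SE, adjusted p = 0.002), and the constitutive Hsp90ab1 gave 0.91 ± 0.13 (adjusted p = 0.000423). The chaperonin subunits Cct3 and Cct2, parts of the ring that folds actin and tubulin, rose by 0.69 ± 0.10 and 0.56 ± 0.09 (adjusted p = 0.000454 and 0.0013). The medians of both lists kept their sign in each set of libraries, at -0.43 (larger) and -0.34 (smaller) for the endoplasmic reticulum and 0.43 (larger) and 0.36 (smaller) for the cytosol.

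**Figure D3:**
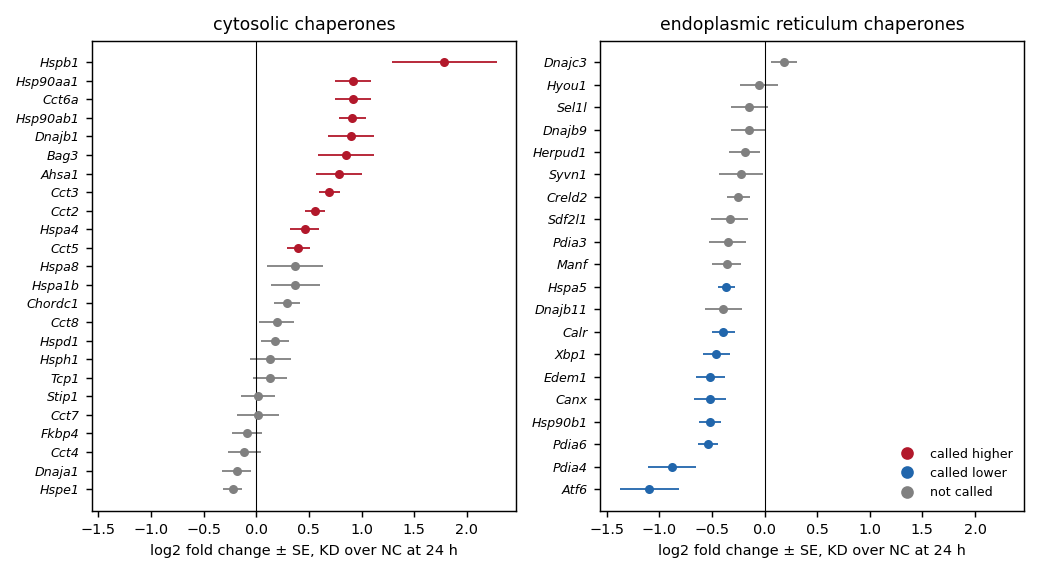
Log2 fold change with its SE for each tested member of the endoplasmic reticulum and cytosolic chaperone lists at 24 h. Colour marks called genes and grey those not called. The called endoplasmic reticulum genes all lie below 0 and the called cytosolic genes all above 0, and the mitochondrial Hspd1 and Hspe1, plotted with the cytosolic list, are not called.

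The promoters of these genes were searched for a known element. It is known from chaperone genes of this kind, so a high share on the list follows from its members and says nothing about the falls. The endoplasmic reticulum stress element, CCAAT and CCACG with 9 bases between them, is the site through which ATF6 and NF-Y act on chaperone genes. It was sought on both strands of windows from 250 bases before to 50 bases after each RefSeq start site (GRCm38.p6). It occurred in 8 of the 17 tested chaperone genes of the endoplasmic reticulum that had a window, in 5 of 8 that fell and 3 of 9 that were not called, against 37 of 27025 genes in the annotation (0.137%) and 14 of 7497 genes tested (0.187%). Of these 14, 8 were on the list and 6 were not. Among the 14, 6 fell and none rose, and Spats2l was the only one called outside the list. The windows of the 5 fallen chaperone genes are shown because they carry the element, in capitals.
Hspa5, chr2:34772020-34772048, plus strand: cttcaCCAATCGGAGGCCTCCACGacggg
Calr, chr8:84847070-84847098, plus strand: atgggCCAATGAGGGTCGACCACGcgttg
Hsp90b1, chr10:86705633-86705661, minus strand: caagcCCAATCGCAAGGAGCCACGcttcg
Hsp90b1, chr10:86705528-86705556, plus strand: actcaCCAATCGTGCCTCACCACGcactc
Canx, chr11:50325795-50325823, minus strand: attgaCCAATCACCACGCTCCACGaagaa
Pdia6, chr12:17266486-17266514, plus strand: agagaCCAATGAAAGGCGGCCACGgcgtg
The heat shock element, searched as GAA, TTC and GAA with 2 bases between each, was found in 2 of the 18 cytosolic chaperone genes with a window, in none of the 9 that rose and in 2 of the 9 not called, and in the mitochondrial Hspd1 and Hspe1, against 179 of 27025 genes (0.662%). A match describes the letters of the window and does not show that a factor is bound there.

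The coats of vesicles that carry secreted protein between the endoplasmic reticulum and the Golgi also held more falls than rises. Of 26 tested COPI and COPII genes 10 fell and 1 rose, although the median was only -0.07. Sec24d has been described above. Sec31a, of the outer COPII cage, changed by -1.01 ± 0.19, Copz2, a COPI subunit, by -0.89 ± 0.15 and Preb, the SEC12 exchange factor that starts COPII assembly, by -0.60 ± 0.14 (adjusted p = 0.00145 to 0.00686). All 3 were without overlap between groups. The lysosome list was mixed, with 3 rises and 5 falls of 39. Ctsl, cathepsin L, rose by 0.63 ± 0.15 and Atp6v0c, a proton pump subunit, by 0.50 ± 0.11, whereas the proton pump genes Atp6v0a1 and Atp6ap2 changed by -1.78 ± 0.25 and -1.42 ± 0.22 (adjusted p = 0.00034 to 0.00916). With a library left out the counts became 9 falls in the lysosome genes list without KD replicate 6.

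Of 41 tested ribosome biogenesis factors, which assemble ribosomes in the nucleolus, 17 rose and 2 fell (median 0.43, 0.60 for the larger set of libraries and 0.25 for the smaller). Nop56, a core protein of box C/D snoRNPs, ranged from 12.4 to 20.3 scaled RPKM in the KD libraries (median 16.8) and 5.09 to 7.64 in the NC libraries (median 6.12). Its KD libraries were all higher (log2 fold change 1.38 ± 0.16, SE, adjusted p = 0.000113). Gnl3 (nucleostemin) rose by 1.20 ± 0.14, Ddx18, a nucleolar helicase, by 1.08 ± 0.17 and Npm1 (nucleophosmin), a nucleolar histone chaperone, by 0.78 ± 0.11 (adjusted p = 7.99e-05 to 0.000684). Pes1 and Bop1, which act together in the maturation of the large subunit, were the 2 that fell, at -0.56 ± 0.14 and -1.06 ± 0.19 (adjusted p = 0.0125 and 0.00171), and were named after their values were seen.

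Of 39 translation factors 17 rose and 1 fell (median 0.29). Eif5, the GTPase activator of start codon recognition, rose from 27.5 ± 3.11 scaled RPKM in NC to 51.3 ± 9.30 in KD (SD, n = 6 each), by 0.88 ± 0.14 (adjusted p = 0.000665). Eif3g, a subunit of the initiation factor eIF3, gave 1.00 ± 0.19, Gspt1, the release factor eRF3, 0.80 ± 0.16 and Eif2s2, the beta subunit of eIF2, 0.55 ± 0.10 (adjusted p = 0.0018 to 0.0035). Only Eif4ebp1, the repressor of cap-dependent initiation, fell (-0.53 ± 0.11, adjusted p = 0.00355). Of 52 tested ribosomal proteins 9 rose and none fell (median 0.18), among them Rpl31 (1.03 ± 0.27) and Rpl13 (0.46 ± 0.13), and 4 of 22 aminoacyl-tRNA synthetases rose and 1 fell (median 0.14). Rars, Nars and Kars, the synthetases for arginine, asparagine and lysine, rose by 0.59 ± 0.12, 0.55 ± 0.13 and 0.43 ± 0.11, and Farsb, of the phenylalanine enzyme, gave -0.79 ± 0.24 (adjusted p = 0.00271 to 0.0248). Ribosomal protein genes have many processed copies in the genome, which makes their read assignment uncertain. Leaving out a library gave 4 rises in the cytosolic ribosomal proteins list without NC replicate 2 and 15 without KD replicate 6, and 7 rises in the cytosolic aminoacyl-tRNA synthetases list without KD replicate 6.

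Among genes that process RNA, 11 of 25 hnRNP proteins rose and none fell (median 0.46), and 12 of 43 snRNP and spliceosome core genes rose and none fell (median 0.32). Hnrnpa2b1, an RNA-binding protein of splicing and export, ranged from 157 to 362 scaled RPKM in the KD libraries (median 167) and 79.2 to 112 in the NC libraries (median 94.1). Every KD library lay above every NC library (log2 fold change 1.05 ± 0.18, SE, adjusted p = 0.00157). Hnrnpul2 and Hnrnpd rose by 0.91 ± 0.23 and 0.78 ± 0.20 (adjusted p = 0.0101 and 0.0114). Snrnp200, the helicase that unwinds U4 and U6, rose by 0.81 ± 0.15 and Prpf4, of the same particle, by 0.89 ± 0.19 (adjusted p = 0.002 and 0.00392). Set medians differed for the hnRNP list, 0.66 for the larger set of libraries and 0.07 for the smaller. Counts without a library were 7 rises in the hnRNP proteins list without KD replicate 5.

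SR proteins held 6 rises and 2 falls of 18 (median 0.34). The 2 falls were the kinases that phosphorylate SR proteins, Srpk2 (-0.75 ± 0.17) and Srpk1 (-1.01 ± 0.21), while Tra2a (0.77 ± 0.19) and Srsf11 (0.53 ± 0.13) rose (adjusted p = 0.00428 to 0.00949). The alternative splicing regulators were mixed, with 3 rises and 4 falls of 26 (median 0.02 for the larger set of libraries and -0.04 for the smaller). Qk (quaking), a KH-domain regulator of splicing and RNA stability, fell from 73.6 ± 13.0 scaled RPKM in NC to 33.7 ± 15.7 in KD (SD, n = 6 each), a log2 fold change of -1.30 ± 0.34 (adjusted p = 0.012). Mbnl2, of the muscleblind family, and Tial1 also fell (-0.78 ± 0.14 and -0.95 ± 0.24), and Tardbp (TDP-43) rose (0.58 ± 0.15), at adjusted p = 0.00182 to 0.0129. Genes of RNA decay and RNase H were read as well, with 5 rises and 1 fall of 25. Exosc2, an exosome subunit, rose by 1.03 ± 0.24, Rnaseh2a, the catalytic subunit of RNase H2, by 0.87 ± 0.22 and Pnpt1, a mitochondrial exonuclease, by 0.72 ± 0.20, and Smg6, the endonuclease of nonsense-mediated decay, gave -1.25 ± 0.24 (adjusted p = 0.00278 to 0.0171). The counts became 3 rises in the SR proteins list without KD replicate 1, and 3 rises in the RNA decay and RNase H list without KD replicate 2.

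Targets of p53, the DNA damage and stress regulator, rose in 9 of 22 tested and fell in none (median 0.43). Gdf15, a secreted stress cytokine that is also induced through ATF4, ranged from 15.9 to 33.7 scaled RPKM in the KD libraries (median 31.0) and 5.59 to 9.89 in the NC libraries (median 6.44). KD and NC did not overlap (log2 fold change 1.93 ± 0.22, SE, adjusted p = 8.29e-05). Mdm2, the ubiquitin ligase that degrades p53, ranged from 22.5 to 32.9 scaled RPKM in the KD libraries (median 28.2) and 9.22 to 15.7 in the NC libraries (median 12.2), also without overlap (log2 fold change 1.19 ± 0.15, SE, adjusted p = 0.000166). Plk2, a polo-like kinase, and Trp53inp1 rose by 1.30 ± 0.19 and 1.39 ± 0.19 (adjusted p = 0.000547 and 0.000359), and Cdkn1a (p21), the CDK inhibitor, by 0.44 ± 0.12 (adjusted p = 0.0181). Trp53 itself gave 0.61 ± 0.17 (adjusted p = 0.0158).

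NRF2 drives antioxidant and detoxifying genes, and 9 of its 28 tested targets rose and 3 fell (median 0.36). Txnrd1, thioredoxin reductase, belongs to the long genes that rose and ranged from 19.3 to 84.7 scaled RPKM in the KD libraries (median 38.4) and 8.94 to 10.7 in the NC libraries (median 9.97). NC libraries were nearly level, and KD replicate 6 was the highest of the widely spread KD libraries (log2 fold change 1.93 ± 0.28, SE, adjusted p = 0.000474). Osgin1 and Sqstm1 (p62), the autophagy receptor, rose by 1.98 ± 0.42 and 1.00 ± 0.20 (adjusted p = 0.00422 and 0.00278). The 3 members that fell, named after their values were seen, were Tkt (-0.57 ± 0.17), G6pdx (-0.51 ± 0.15) and Taldo1 (-0.42 ± 0.13), enzymes of the pentose phosphate pathway (adjusted p = 0.0203 to 0.0341).

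ATF4 targets, the amino acid and integrated stress response genes, gave 4 rises and 1 fall of 18 with a median of 0.01, 0.12 for the larger set of libraries and -0.00 for the smaller. Slc3a2, the heavy chain of amino acid transporters, rose by 0.94 ± 0.16, Atf4 by 0.52 ± 0.10 and Ppp1r15a (GADD34), the phosphatase subunit that reverses eIF2 phosphorylation, by 0.77 ± 0.23, and Cth, of cysteine synthesis, gave -1.03 ± 0.27 (adjusted p = 0.00147 to 0.0274). Of 17 glucocorticoid targets 4 rose and 1 fell (median 0.41), with Sgk1 at 0.95 ± 0.17, Glul at 0.70 ± 0.14 and Tsc22d3 (GILZ) at -0.78 ± 0.14 (adjusted p = 0.00148 to 0.00368). The glucocorticoid median was 0.63 for the larger set of libraries and 0.06 for the smaller. With a library left out the counts became 2 rises in the ATF4 targets list without KD replicate 1.

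Immediate early genes and feedback regulators of the MAP kinase cascade, which answer growth factor signals within minutes to hours, rose in 7 of 21 tested and fell in none (median 0.65, 0.81 for the larger set of libraries and 0.38 for the smaller). Hbegf, a membrane-anchored ligand of the EGF receptor, ranged from 1.56 to 2.35 scaled RPKM in the KD libraries (median 1.87) and 0 to 1.45 in the NC libraries (median 0.369). The groups did not overlap (log2 fold change 2.19 ± 0.50, SE, adjusted p = 0.00656). Jun, a subunit of AP-1, ranged from 3.94 to 20.8 scaled RPKM in the KD libraries (median 15.8) and 1.75 to 5.14 in the NC libraries (median 3.24), with an overlap between groups (log2 fold change 1.76 ± 0.40, SE, adjusted p = 0.00589). Atf3 and Phlda1 rose by 1.69 ± 0.28 and 1.16 ± 0.26 (adjusted p = 0.000994 and 0.00527). Atf3 was low in NC, at 0.926 ± 0.387 scaled RPKM, against 3.19 ± 1.16 in KD (SD, n = 6 each). Leaving out a library gave 12 rises in the immediate early and feedback genes list without KD replicate 4.

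Receptor tyrosine kinases and growth factors gave 4 rises and 4 falls of 24 (median 0.15 for the larger set of libraries and -0.12 for the smaller). The rise of Epha2 is among these 4 and had to differ, since the gene passed the filter on low values through KD libraries alone. Beside Epha2 and Hbegf, Efnb2, an ephrin ligand, rose by 1.66 ± 0.28, and Gas6, the ligand of the TAM receptors, fell from 9.43 ± 1.19 scaled RPKM in NC to 2.93 ± 1.35 in KD (SD, n = 6 each), a value of -1.77 ± 0.26 (adjusted p = 0.00127 and 0.000518). Targets of YAP and TEAD, the effectors of the Hippo pathway, were split, with 8 rises and 6 falls of 19 (median 0.03, 0.15 for the larger set of libraries and -0.26 for the smaller). Ajuba and Lats2 (1.35 ± 0.23), a Hippo kinase, rose, and Rbms3 (-2.01 ± 0.24), an RNA-binding protein, and Dock5 (-1.59 ± 0.28) fell, with adjusted p = 0.00014 to 0.00206. The TGF-beta and BMP pathway gave 7 rises and 2 falls of 33 (median 0.04). Its inhibitory SMAD, Smad7, rose by 1.28 ± 0.28, the activin subunit gene Inhba by 1.80 ± 0.40 and Gdf10 by 1.26 ± 0.29, whereas the co-receptor Tgfbr3 gave -1.75 ± 0.33 (adjusted p = 0.00206 to 0.00638). Counts without a library were 2 falls in the receptor tyrosine kinases and growth factors list without NC replicate 6, 5 rises in the YAP and TEAD targets list without KD replicate 1, and 4 rises in the TGF-beta and BMP pathway list without KD replicate 1.

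The IGF and insulin pathway had the lowest median of the 49 lists, -0.49, with 9 falls and 1 rise of 25. Insulin was present in the medium of both groups. Of the ligands, Igf1 ranged from 20.7 to 56.7 scaled RPKM in the KD libraries (median 47.1) and 69.8 to 97.7 in the NC libraries (median 89.0), and every KD library was lower (log2 fold change -1.005 ± 0.21, SE, adjusted p = 0.00359). The binding proteins Igfbp5 and Igfbp3, which hold IGFs in the matrix, gave -1.68 ± 0.31 and -1.01 ± 0.24, and Igfbp5 ranged from 1.25 to 3.66 scaled RPKM in the KD libraries (median 2.05) and 3.99 to 10.9 in the NC libraries (median 8.90) (adjusted p = 0.00206 and 0.00701). Grb10, an adaptor that restrains the receptors, gave -0.85 ± 0.15 (adjusted p = 0.00174). The receptors Igf1r and Insr, named after their values were seen, gave -0.90 ± 0.26 and -0.58 ± 0.20 (adjusted p = 0.0195 and 0.0475), and the only rise was that of the kinase Akt1 (0.57 ± 0.16, adjusted p = 0.0186).

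Wnt pathway genes gave 7 falls and 3 rises of 19 (median -0.30), with medians of 0.17 for the larger set of libraries and -0.27 for the smaller. The transcription factors at the end of the pathway, Tcf7l1 and Tcf7l2, changed by -1.40 ± 0.23 and -1.18 ± 0.22, the receptor kinase-like Ryk by -0.91 ± 0.18 and the secreted Sfrp2 by -0.59 ± 0.09 (adjusted p = 0.000534 to 0.00282). In adrenergic and cAMP signalling 4 of 22 rose and 3 fell. Adrb3, the beta-3 receptor of fat cells, fell from 17.7 ± 3.27 scaled RPKM in NC to 10.1 ± 2.26 in KD (SD, n = 6 each) (log2 fold change -0.82 ± 0.17, SE, adjusted p = 0.00419), Adcy5, an adenylate cyclase, gave -0.996 ± 0.26 and Pde3b, a cAMP phosphodiesterase, -0.63 ± 0.16, and Prkar1a, a regulatory subunit of protein kinase A, rose by 0.42 ± 0.11 (adjusted p = 0.00976 to 0.0142). The counts became 2 rises in the adrenergic and cAMP signalling list without KD replicate 1.

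Collagens and other matrix proteins form the bed around fat cells. Of 18 tested collagen chains 6 fell and none rose (median -0.33), and of 37 matrix glycoproteins and proteoglycans 6 fell and 2 rose (median -0.21). Col5a1, a chain of fibrillar collagen V, ranged from 4.72 to 9.15 scaled RPKM in the KD libraries (median 6.86) and 12.2 to 14.8 in the NC libraries (median 12.6), without overlap (log2 fold change -0.97 ± 0.18, SE, adjusted p = 0.00178). Col5a3, another collagen V chain, and Col4a2, of basement membrane, changed by -0.98 ± 0.15 and -0.82 ± 0.13 (adjusted p = 0.000782 and 0.000943). Fbn1, the microfibril protein, ranged from 3.44 to 5.03 scaled RPKM in the KD libraries (median 4.06) and 6.07 to 8.15 in the NC libraries (median 7.28), and all KD libraries were lower (log2 fold change -0.79 ± 0.16, SE, adjusted p = 0.00299). Hspg2 (perlecan) gave -0.99 ± 0.21 (adjusted p = 0.00445). Preadipocyte and stromal markers, a list that itself holds collagen genes, had no called gene among 10 tested. Of these 10, 8 lay below 0 (median -0.11). The part of matrix-making cells in the falls of matrix genes was not tested.

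Matrix proteases and their inhibitors were mixed, with 5 rises and 4 falls of 27 (median 0.16 for the larger set of libraries and -0.25 for the smaller). Plaur, the urokinase receptor, ranged from 6.32 to 14.7 scaled RPKM in the KD libraries (median 10.4) and 1.73 to 3.69 in the NC libraries (median 2.04), without overlap (log2 fold change 2.10 ± 0.26, SE, adjusted p = 0.00014), whereas the disintegrin protease Adam12 ranged from 1.69 to 6.32 scaled RPKM in the KD libraries (median 3.56) and 10.2 to 12.5 in the NC libraries (median 11.5) and was lower in every KD library (log2 fold change -1.69 ± 0.25, SE, adjusted p = 0.000551). Adam19 and the procollagen protease Adamts2 changed by -1.29 ± 0.27 and -1.16 ± 0.16 (adjusted p = 0.00392 and 0.000324). Integrin and focal adhesion genes gave 3 rises and 5 falls of 19, with Parva (parvin) at -1.66 ± 0.26, Ptk2 (focal adhesion kinase) at -1.10 ± 0.21, Tns1 (tensin) at -0.91 ± 0.19 and Bcar1 (p130Cas) at 1.15 ± 0.31 (adjusted p = 0.000702 to 0.0144). Of 34 actin and contractile genes 7 rose and 3 fell, with a median of 0.08 that differed between sets, 0.22 for the larger set of libraries and -0.19 for the smaller. Pdlim7, a LIM protein of stress fibres, rose by 0.81 ± 0.19, and Cald1 (caldesmon) gave -0.83 ± 0.18 (adjusted p = 0.00741 and 0.00454). Of 12 tubulins 1 was called, Tubb4b at -0.41 ± 0.14 (adjusted p = 0.0393). With a library left out the counts became 2 rises in the matrix proteases and inhibitors list without KD replicate 2, 8 falls in the matrix proteases and inhibitors list without KD replicate 6, and 3 falls in the integrins and focal adhesion list without KD replicate 1.

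Foreign nucleic acid can raise interferon-stimulated genes, and both groups received an oligonucleotide. Of 32 such genes 5 rose and 2 fell at 24 h (median 0.24). Irf9, a transcription factor of interferon signalling, rose by 0.65 ± 0.13 and Xaf1 by 0.87 ± 0.23, and Dhx58 (LGP2), an RNA sensor, gave -0.69 ± 0.16 (adjusted p = 0.0031 to 0.0124). Of 20 NF-kB and chemokine genes 3 rose and 1 fell (median 0.21). One of the rises, that of Ptgs2, had to differ, since the gene passed the filter on low values through KD libraries alone. Il6 ranged from 3.96 to 11.5 scaled RPKM in the KD libraries (median 9.36) and 1.12 to 4.64 in the NC libraries (median 3.32), with overlap (log2 fold change 1.47 ± 0.37, SE, adjusted p = 0.0107). Nfkbiz, an inducible regulator of NF-kB, rose by 1.32 ± 0.34, and Cxcl12, a stromal chemokine, gave -0.87 ± 0.17 (adjusted p = 0.0125 and 0.00229). The macrophage marker Csf1r rose (1.21 ± 0.27, adjusted p = 0.00492). The other 3 of the 4 macrophage markers tested lay below 0 and were not called (median of the 4, -0.96). Summed macrophage markers overlapped between KD and NC as given above. The part of immune cells in these changes was not tested. Leaving out a library gave 2 rises in the interferon-stimulated genes list without KD replicate 1 and 8 without KD replicate 4.

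Cell cycle genes showed no common direction. S phase genes gave 3 rises and 3 falls of 31, with Cdt1, a licensing factor of replication origins, at 1.57 ± 0.34, Mcm3 at 0.88 ± 0.19 and Rfc2, of the clamp loader, at -1.26 ± 0.29 (adjusted p = 0.00458 to 0.00681). Mitosis genes gave 2 rises and 3 falls of 32 (median -0.28 for the larger set of libraries and 0.14 for the smaller), from Cdc20 at 0.67 ± 0.20 to Ect2, an exchange factor of cytokinesis, at -1.50 ± 0.51 (adjusted p = 0.0264 and 0.0424). D cyclins and CDK inhibitors gave 3 rises and 2 falls of 14, with Cdkn2b (p15) at 0.94 ± 0.23 and Ccnd2 (cyclin D2) at -0.75 ± 0.14 (adjusted p = 0.00846 and 0.00191).

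Of 29 BCL2 family and cell death genes 4 rose and 5 fell (median -0.09 for the larger set of libraries and 0.06 for the smaller). Bcl2l11 (BIM), a death activator, rose by 1.18 ± 0.26, whereas Diablo (SMAC), an antagonist of caspase inhibitors, gave -0.85 ± 0.21 and Mlkl, the effector of necroptosis, -0.76 ± 0.13 (adjusted p = 0.0012 to 0.0104). Circadian clock genes gave 3 falls and no rise of 14, with Per3 at -1.79 ± 0.47, Npas2 at -1.44 ± 0.30 and Arntl (BMAL1) at -1.12 ± 0.25 (adjusted p = 0.00358 to 0.0124). The clock median was 0.13 for the larger set of libraries and -0.35 for the smaller. Of 39 proteasome subunits 6 rose and 2 fell (median 0.03), with Psmc6 at 0.70 ± 0.10 and Psmb6 at -0.72 ± 0.16 (adjusted p = 0.00034 and 0.00478). Counts without a library were 1 rise in the BCL2 family and cell death genes list without KD replicate 1, 3 falls in the BCL2 family and cell death genes list without KD replicate 5, and 3 rises in the proteasome subunits list without KD replicate 1.

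The metabolic lists had medians below 0, except cholesterol synthesis (0.14). Fatty acid oxidation gave 8 falls and no rise of 22 (median -0.32), the tricarboxylic acid cycle 6 and 0 of 22 (-0.32), complex I 11 and 0 of 36 (-0.22), complexes II to V 5 and 0 of 39 (-0.16) and mitochondrial ribosomal proteins 10 and 3 of 73 (-0.17). In the last 2 lists the share of falls, 12.82% and 13.7%, was near that of all genes tested (12.9%). Hadha, the trifunctional enzyme of beta-oxidation, ranged from 43.4 to 85.3 scaled RPKM in the KD libraries (median 69.5) and 105 to 131 in the NC libraries (median 119), without overlap (log2 fold change -0.87 ± 0.16, SE, adjusted p = 0.00176). Hadh, a dehydrogenase of the same pathway, and Cpt1b, the carnitine gate of oxidation, gave -0.87 ± 0.19 and -0.76 ± 0.16, and Pcx, which refills the cycle, -0.63 ± 0.12 (adjusted p = 0.00229 to 0.00464). Ndufs4 stood apart in complex I at -1.02 ± 0.17 (adjusted p = 0.00105), with the other 10 falls of complex I between -0.54 and -0.27. The medians were nearer 0 in the smaller set, at -0.50 against -0.10 for fatty acid oxidation, -0.41 against -0.06 for the cycle, -0.36 against -0.04 for complex I and -0.30 against 0.02 for mitochondrial ribosomal proteins (larger against smaller set). Adipocyte markers, with 4 falls of 12 (2 without KD replicate 1), moved the same way, and their part in these falls and in those of the lipid lists was not tested. The counts became 3 falls in the tricarboxylic acid cycle list without NC replicate 1 and 10 without KD replicate 4, 4 falls in the complex I subunits list without KD replicate 1, 1 fall in the complex II to V subunits list without KD replicate 1 and 10 without KD replicate 4, and 17 falls in the mitochondrial ribosomal proteins list without KD replicate 4.

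Lipid droplet and lipolysis genes gave 9 falls and 1 rise of 21 (median -0.31, -0.43 for the larger set of libraries and -0.09 for the smaller). G0s2, the inhibitor of the lipase ATGL, ranged from 739 to 1497 scaled RPKM in the KD libraries (median 900.1) and 1796 to 2018 in the NC libraries (median 1918). Its KD libraries were all lower than NC (log2 fold change -0.94 ± 0.16, SE, adjusted p = 0.00122). Slc27a1, a fatty acid transporter, gave -1.14 ± 0.21 and Mgll, monoglyceride lipase, -0.95 ± 0.12 (adjusted p = 0.00215 and 0.000165), and the droplet coat gene Plin2 was the rise (0.51 ± 0.14, adjusted p = 0.0182). Synthesis of fatty acids and triglycerides gave 4 falls of 21 (median -0.23), with Acaca as above, Dgat1 at -0.61 ± 0.12 and Lpin1 at -0.61 ± 0.13, both of triglyceride assembly (adjusted p = 0.00215 and 0.00372). Glycolysis and glucose uptake gave 4 falls of 18 (median -0.19). Slc2a4, the insulin-regulated glucose transporter GLUT4, ranged from 2.01 to 8.75 scaled RPKM in the KD libraries (median 6.55) and 10.3 to 24.9 in the NC libraries (median 19.9), with KD replicate 6 the lowest (log2 fold change -1.60 ± 0.32, SE, adjusted p = 0.00298). In cholesterol synthesis only Hsd17b7 (0.45 ± 0.16) and Nsdhl (-0.55 ± 0.17) of 23 were called (adjusted p = 0.0469 and 0.0282).

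The called genes of highest level were read as well. Among the 10 rises of highest level, Ptx3, a secreted pentraxin of innate immunity, ranged from 734 to 2153 scaled RPKM in the KD libraries (median 1515) and 428 to 934 in the NC libraries (median 576). The groups overlapped, with KD replicate 4 the lowest of KD (log2 fold change 1.18 ± 0.26, SE, adjusted p = 0.00548). Tmsb4x, the actin monomer binder thymosin beta 4, gave 0.90 ± 0.18, the intermediate filament Vim 0.64 ± 0.12, S100a10, a calcium-binding partner of annexin A2, 0.40 ± 0.10, Timp1, a metalloprotease inhibitor, 0.36 ± 0.12 and Cstb, a cysteine protease inhibitor, 0.32 ± 0.10 (adjusted p = 0.00265 to 0.0345). The ribosomal proteins Rps14, Rps20 and Rpl4 gave 0.36 ± 0.10, 0.31 ± 0.09 and 0.33 ± 0.10 (adjusted p = 0.0129 to 0.0281). On the side of the falls stood G0s2, Ldha (-0.59 ± 0.18), lactate dehydrogenase, the mitochondrially encoded ND4L (-0.47 ± 0.12), Etfb (-0.40 ± 0.11), Sparc (-0.34 ± 0.11), a matrix glycoprotein, Ndufb9 (-0.33 ± 0.10), Cox4i1 (-0.28 ± 0.09), Uqcrq (-0.27 ± 0.08) and Ndufa6 (-0.27 ± 0.09), the last 4 of the respiratory chain (adjusted p = 0.0129 to 0.0404). Adipoq, the adipocyte hormone adiponectin, was the remaining fall, from 1215 to 2484 scaled RPKM in the KD libraries (median 1627) and 2479 to 2670 in the NC libraries (median 2528), with KD replicate 4 inside the NC range (log2 fold change -0.56 ± 0.16, SE, adjusted p = 0.0193). ND4L lies on a shared transcript with ND4, so its reads are not its own alone.

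Whether early changes were still present was read from the libraries at 72 h, 6 of KD and 5 samples of NC after 2 NC libraries that agreed within sampling noise were averaged, which share no library with those at 24 h. Of the 1235 genes higher at 24 h, 1212 were tested at 72 h and 506 were called higher there (41.7%), against 11.8% of all 10400 genes tested at 72 h. Of the 1328 lower genes, 1312 were tested and 751 were called lower (57.2%), against 13.6%. The sign was the same for 1118 of the 1212 and 1231 of the 1312. Cd24a was at 4.51 ± 0.27 at 72 h, Sprr1a at 4.23 ± 0.29, Maoa at 2.29 ± 0.14 and Acaca at -2.19 ± 0.21 (adjusted p = 3.73e-07 to 1.42e-05). Not called at 72 h were, for example, Ptx3 (-0.96 ± 0.68, adjusted p = 0.326) and Septin6 (-0.48 ± 0.33, adjusted p = 0.308), where the difference between times was not tested.

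By list, hnRNP genes held 11 rises at 24 h and 4 of 25 at 72 h, and SR proteins 6 and 0 of 18. COPI and COPII genes held 10 falls and 1 rise at 24 h, and 4 falls and 4 rises of 26 at 72 h (median 0.01). Interferon-stimulated genes had 5 rises at 24 h and 17 of 32 at 72 h (median 0.77), complex I 11 falls and 27 of 36 and the tricarboxylic acid cycle 6 and 16 of 22. Ribosome biogenesis factors, the cytosolic chaperone list and p53 targets had at 72 h 18 rises of 39, 14 of 26 and 10 of 23, against 11.8% of all genes tested. These changes in count between times were not tested. Only 5 genes were called in opposite directions, with 24 h before 72 h in brackets, Vti1b (-0.95 ± 0.22 and 0.60 ± 0.14), Rpl5 (0.52 ± 0.15 and -0.79 ± 0.16), Ascc2 (-0.61 ± 0.18 and 0.76 ± 0.16), Fam183b (-1.02 ± 0.33 and 1.10 ± 0.29) and Ripk3 (-0.43 ± 0.15 and 0.50 ± 0.14). The first is a vesicle SNARE, Rpl5 a ribosomal protein, Ascc2 a subunit of the ASCC complex and Ripk3 a necroptosis kinase. They were named after their values were seen.

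**Figure D4:**
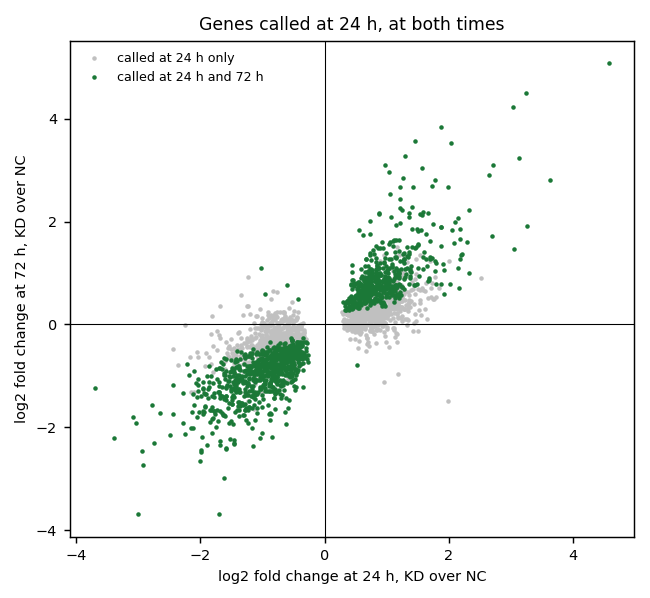
Log2 fold change of the genes called at 24 h, at 24 h on the horizontal and at 72 h on the vertical axis, 1 point per gene. Green marks genes called at both times. Most points lie in the quadrants of equal sign, 1118 of 1212 for rises and 1231 of 1312 for falls.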

How the data were processed

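Libraries were grouped by the labels into KD and NC at 24 h and 72 h (6 libraries each). The authors processed the BRB-seq reads in the Genomatix suite against NCBI RefSeq and tested each time point with DESeq2. The deposited values are RPKM for 168326 table entries, and the aligner settings, filters and genome build are not given in the sources used here. The deposited table has 0 columns that were not used.

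The comparison and the gene lists were chosen with earlier results of these data known. From the deposited RPKM, 1 entry was kept per gene symbol, RefSeq entries first and then the highest mean, and 12803 of 33192 symbols above 0 that were only an accession were left out. Low values were whole multiples of 1 read (within 0.05 of a read) for 94.2% to 94.6% of entries at 24 h, which gave the mapped totals. NC replicates 2 and 3 at 72 h agreed within sampling noise and were averaged, which leaves 5 NC samples at 72 h. Libraries were scaled by trimmed means of log ratios (30% of ratios and 5% of levels trimmed), and a gene was tested when 6 or more (5 or more at 72 h) of the libraries compared reached the RPKM that 10 reads give at the median depth. The test was run on log2(RPKM + 0.1) with limma 3.58.1 in R 4.3.3 (eBayes with an intensity trend), and fold changes on this scale understate those of low genes. Self-tests on simulated data recovered the changes put in. Genes are named when they are the target, the 15 greatest rises or falls without overlap, the 10 called of highest level in each direction, up to 4 called members of each list by adjusted p, or the 5 long genes of smallest adjusted p in each direction, and some of these are not reported here. Alternatives were the pseudocount, filter, scaling, a replicate block, leaving out each library, the library sets, voom on recovered reads, the choice of entry and a fit of all 4 groups. The accession-only symbols, the list counts under each setting and the cytosolic chaperone list without its mitochondrial members were added after seeing the data.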

Additional observations from a re-analysis of the deposited data

Results flagged for a closer look

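Among the named genes, 482 groups of 6 libraries were examined for a library apart from its group, and 25 (5.2%) had a highest or lowest library whose gap to the nearest other library was, as a share of the group's range, above Dixon's 95% critical value. Chance gives about 1 in 20 such groups. The share of the range is given in brackets. Of the 25, 14 were in KD replicate 6, the library of least depth. It was the lowest of its group for Slc2a4 (0.703), Igf1 (0.636), 5033415L01Rik (0.662), Qk (0.654), Per3 (0.636), Rpl13a (0.639), Ect2 (0.637) and Elovl5 (0.641), and the highest for Gspt1 (0.637), Prpf4 (0.674), Hspa5 (0.628), Srsf11 (0.630), Rpl13 (0.875) and Rps20 (0.691). Without KD replicate 6, 1 of the 241 named genes lost its call and none changed direction.

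Of the other libraries, KD replicate 4 was the lowest for Serpinb2 (0.630), KD replicate 4 was the lowest for Sgk1 (0.748), KD replicate 3 was the lowest for Mmd2 (0.715) and NC replicate 5 was the lowest for Phlda1 (0.757). KD replicate 2 was the lowest for 9330177L23Rik (0.720), NC replicate 2 was the highest for Tra2a (0.680), NC replicate 4 was the lowest for Rnaseh2a (0.650) and NC replicate 3 was the lowest for Rpl31 (0.802). KD replicate 5 was the highest for Cdkn1a (0.640), NC replicate 2 was the highest for Psmb4 (0.696) and KD replicate 3 was the highest for Ccna2 (0.712).

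Ascc2, a subunit of the ASCC complex, was lower in every KD library than in every NC library at 24 h (-0.61 on the log2 scale) and higher in every KD library at 72 h (0.76). The difference between the times was not tested.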

How the results depend on the processing

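The 2563 calls at 24 h (1235 higher, 1328 lower) became 401 (199 higher, 202 lower) in the smaller set of libraries alone, with 182 of them called the same way at 72 h against 1257, since only 2 libraries a group remained, and 158 of the 241 named genes then lost their call. Leaving out 1 library at a time gave 2041 to 3103 calls, 960 to 1479 higher, 1042 to 1624 lower, 1048 to 1432 shared with 72 h and 0 to 3 of 6 Ctcflos entries past the test. No named gene changed direction under any setting in which it was tested. On the deposited RPKM scale 1364 of 2527 calls were higher. The median log2 fold change had opposite signs in the larger and smaller sets for 11 pathway lists. KD replicate 6, at 1391830 reads, limits what can be seen of genes at low level.

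Groups share replicate numbers, but samples of 1 number share only that number. The correlation of deviations between same-numbered libraries at 24 h was -0.12 on average (-0.302 to 0.265). With the number as a replicate block the counts were 1995 calls, 938 higher and 1057 lower, with 902 called the same way at 72 h, and 21 of the 241 named genes lost their call.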
